A study of Mus musculus with 4 samples.

Results

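Glomerular RNA of mice that lack guanylyl cyclase A (GC-A KO, or KO) was set against that of wild-type (WT) mice, both under control treatment, with 1 Affymetrix mouse 3' expression array on each side. The genes described are the 9097, of 18193 measured, in the brighter 50% by mean log2 intensity over the 4 arrays of the study, each read from its brightest probe set. All mice were male and had had a kidney removed, and GC-A was lost systemically, not in a chosen cell type. The control mice, KO and WT alike, received 2% ethanol under the skin and a normal diet. The study's other 2 groups, KO ALDO and WT ALDO, received aldosterone with a 6% salt diet for 3 weeks, and how long the control treatment lasted is not given separately. The sources used here do not give the strain, the age, the number of mice behind an array or the way glomeruli were isolated. Since each side was 1 array, no difference could be tested, and the values measure these arrays, not a spread between mice. The KO ALDO and WT ALDO arrays form a second pair of the same genotypes, called the ALDO pair, which shares no array with the control pair and differs from it in treatment. It is given beside the control pair and is no replicate of it. A difference is KO minus WT in log2(intensity + 16), so 1 is 2-fold. Where 4 intensities stand in a row, the control pair comes first and the ALDO pair last, WT before KO in each.

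GC-A, encoded by Npr1, is a cell surface receptor that binds atrial and B-type natriuretic peptide from the heart and makes cyclic GMP inside the cell. In the kidney it is known to raise filtration and sodium excretion, to relax vascular smooth muscle and mesangial cells and to restrain renin release. Mice without it are known for high blood pressure and an enlarged heart.

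Each array had the same trimmed mean intensity of 500.003, and the medians over all probe sets were 89.5, 97.7, 91.9 and 103. The 3'/5' signal ratio, which describes RNA integrity, was lower on both KO arrays, at 1.86, 1.67, 1.87 and 1.61 for beta-actin and 0.785, 0.741, 0.778 and 0.744 for Gapdh, and its part in the differences below was not tested. Podocyte genes were bright, with 1752, 1675, 1717 and 1899 for Nphs1, the slit diaphragm protein nephrin, and 989, 871, 736 and 806 for Wt1, the podocyte transcription factor. Tubule genes were bright as well, with 30426, 30615, 27142 and 29223 for uromodulin, Umod, so the glomerular RNA also held tubular RNA. In RNA of mixed cells, fewer cells of a type and less RNA per cell cannot be told apart. The probe set of Npr1 itself was dim at 92.6, 108, 60.5 and 23.4, differed by 0.19 under control treatment, and its place relative to the deletion is not given here, so it did not check the genotype labels.

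Most genes differed little between KO control and WT control. The median difference over the 9097 genes was -0.00, with 5th and 95th percentiles of -0.38 and 0.52, and 73.4% of genes lay within 1.2-fold. Higher by 2-fold or more were 88 genes, 0.967% of those counted, and lower were 16 genes, or 0.176%. At 1.5-fold the counts were 348 higher and 137 lower, at 3-fold 11 and 5, and at 4-fold 4 and 1. The excess of higher genes was thus present at each of these folds. The 88 higher genes had a median intensity that was 315 in WT and 784 in KO control, and for the 16 lower genes it was 1908 and 625.

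The genes higher under control treatment were mostly higher in the ALDO pair as well. Of the 88, 84 had the same direction there and 49 were past 2-fold, where 1.26% of the 9097 were higher by 2-fold and 0.352% lower. Both KO arrays lay above both WT arrays for 82 of the 88, against 25% of all genes. Of the 16 lower genes, 11 had the same direction in the ALDO pair, 3 were past 2-fold there, and for 10 both KO arrays lay below both WT arrays, against 23.7% of all genes. The choice of the 104 genes by the control pair sets part of this order, so nothing is read from these shares. A gene could reach the brighter 50% through the array on which it was high, so some of the 2-fold genes may have been counted because of the difference itself. At the edge of the filter, Dhrsx, with 240.0, 182, 287 and 293, was the last gene counted (mean log2 8.04), and 2810001G20Rik, with 225, 254, 259 and 249.8, the first left out.

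**Figure D1:**
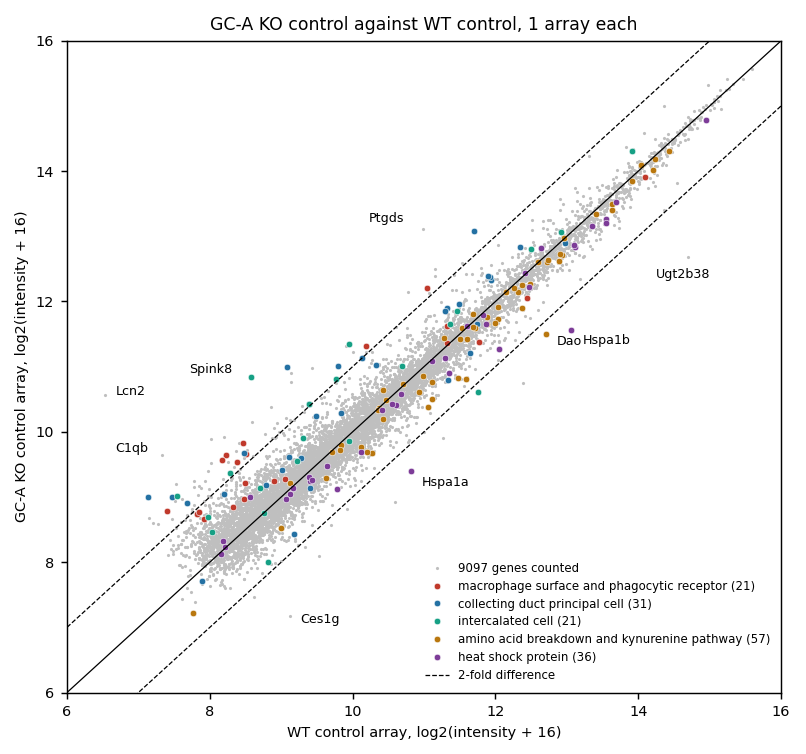
Log2(intensity + 16) of the 9097 genes counted on the WT control array (x axis) and the KO control array (y axis), 1 array each, with 5 gene lists coloured and their number of members in brackets. The solid line marks equal signal and the dashed lines a 2-fold difference, past which 88 genes lie above and 16 below.

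**Figure D2:**
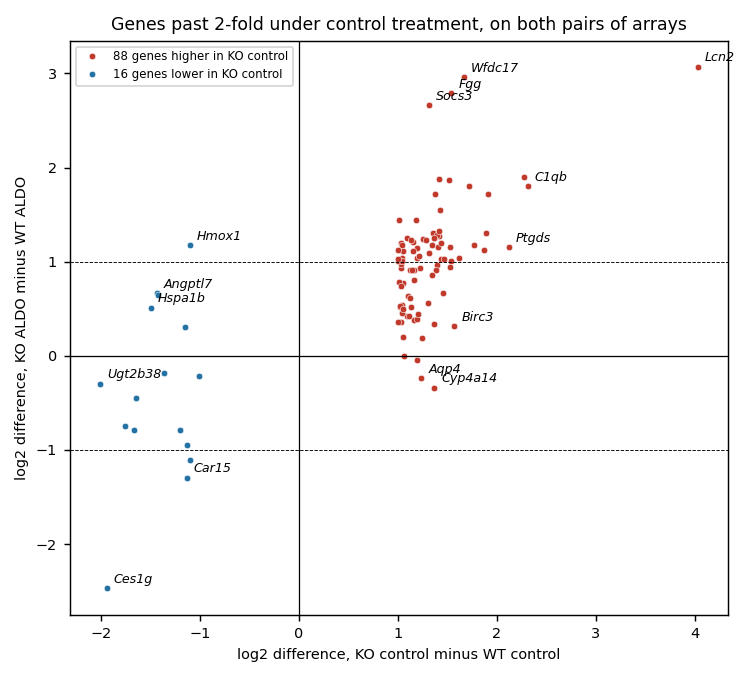
Log2 difference between KO and WT under control treatment (x axis) and under ALDO (y axis) for the 104 genes at or past 2-fold under control treatment, with dashed lines at 2-fold in the ALDO pair. Of the 88 genes higher in KO control (red) 84 lie above 0 on the y axis, and of the 16 lower (blue) 11 lie below it.

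The genes ranked 11 to 30 among the higher ones held several phagocyte and antigen presentation genes. Cd74, the invariant chain that escorts MHC class II molecules, had intensities of 548, 1717, 760.4 and 1578, a difference of 1.62. C1qa, a chain of the complement starter C1q, had 243, 722, 317 and 1196 (1.51). Fcer1g and Tyrobp, the signalling adaptors of Fc and other activating receptors of myeloid cells, had 283, 788, 293 and 887 (1.42) and 271, 742, 328 and 819 (1.40). For all 4 genes the lower KO array was more than 2-fold above the higher WT array. Ly86, the MD-1 partner of a toll-like receptor relative, had a difference of 1.40, and Ms4a6c, a membrane protein of monocytes and macrophages, 1.39, with -0.30 in its other probe set. Adgrg3, an adhesion G protein-coupled receptor of leukocytes, had 1.53.

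Other genes in these ranks have different known roles. Lgals3, the galactose-binding lectin galectin-3, had 944, 2538, 1373 and 3352 (1.41). Vcam1, which binds leukocyte integrins, had 325, 894, 399.9 and 1026 (1.42, with 0.66 in the next-brightest probe set). Cdkn1a, the cell cycle inhibitor p21, had 203, 554, 258 and 885 (1.38, next-brightest 0.45). In each of the 3, both KO arrays were above both WT arrays. Fgg, the fibrinogen gamma chain, had 676, 1995, 721 and 5082, so its difference was larger in the ALDO pair (2.79) than under control treatment (1.54). Birc3, an inhibitor of apoptosis made under NF-kB, differed by 1.57, against 0.31 in the ALDO pair and -0.43 in its other probe set, so its value depends on the probe set read.

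Among the rest of the 20 were the ammonia channel Rhcg, with 975, 2599, 1459.9 and 3273 (1.40), and the intercalated cell membrane protein Hepacam2 (1.47). Ptges, the inducible prostaglandin E synthase, had 161, 494, 252 and 581 (1.53). Decorin, Dcn, a proteoglycan that coats collagen, had 448, 1318, 771 and 1495 (1.52), while its other, dimmer probe set gave -0.10. Ifi27l2a, an interferon-induced gene, had 1.46, and Shisa4, Armcx4 and Pamr1 had 1.44, 1.43 and 1.42. All 20 genes had both KO arrays above both WT arrays, against 25% of all genes. They were ranked by the control pair, which sets part of this order, so nothing is read from it.

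The genes ranked 11 to 30 among the lower ones were smaller differences, from -1.14 to -0.86, and many are made by tubules. Car15, a membrane carbonic anhydrase, had 3434, 1554, 4000.1 and 1619.8 (-1.14). Apom, the apolipoprotein that carries sphingosine 1-phosphate, had 5665, 2842, 6328 and 2934 (-0.99). Bex1 had 949, 435, 979 and 448 (-1.10), nearly the same in the ALDO pair (-1.10). For these 3, each KO array was more than 1.5-fold below each WT array. Cndp2, a cytosolic dipeptidase, had 21058, 10795, 17099.8 and 10209 (-0.96, and -1.09 in its other probe set). Mep1b, the beta subunit of the brush border protease meprin, had 1741, 908, 1236 and 528 (-0.93). Mdk, the growth factor midkine, and Plau, the urokinase plasminogen activator, had -0.91 and -0.87.

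Further lower genes were enzymes and carriers. Hsd11b1, which regenerates active glucocorticoid, had 2031, 1001, 1764 and 1519 (-1.01), a difference of -0.21 in the ALDO pair. Alas1, the first enzyme of haem synthesis, had 4189, 2190.2, 4264 and 4418 (-0.93), so only the KO control array was low. Slc9a8, a sodium-proton exchanger, and Dpys, which breaks down pyrimidines, had -0.98 and -0.98, with -0.16 and -0.42 in the next-brightest probe sets. Slc18a1, a vesicular monoamine transporter, had -0.87 (next-brightest -0.34), Serpina1f -1.13, and Bok, a BCL2 family protein, -0.89. Marveld3, a tight junction protein, had -0.87, opposite to 0.28 in a dimmer probe set.

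In 6 of the 20 the arrays of the genotypes overlapped. These were Hmox1 with 632, 286, 262 and 612, Alas1, Nbn of DNA break repair with 662, 324, 343 and 449.5, the tomosyn Stxbp5l with 465, 239, 220.4 and 169.8 (next-brightest -0.31), the Mediator subunit Med18 with 446, 235, 245 and 339, and Fgfbp1, an FGF carrier, with 569.7, 306, 659 and 797. For Hmox1, Nbn, Stxbp5l and Med18 the WT control array was the high one of the WT arrays by more than 1.5-fold. For Hmox1, Nbn, Med18, Alas1 and Fgfbp1 the ALDO pair had the opposite sign, from 0.05 for Alas1 to 1.18 for Hmox1.

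**Figure D3:**
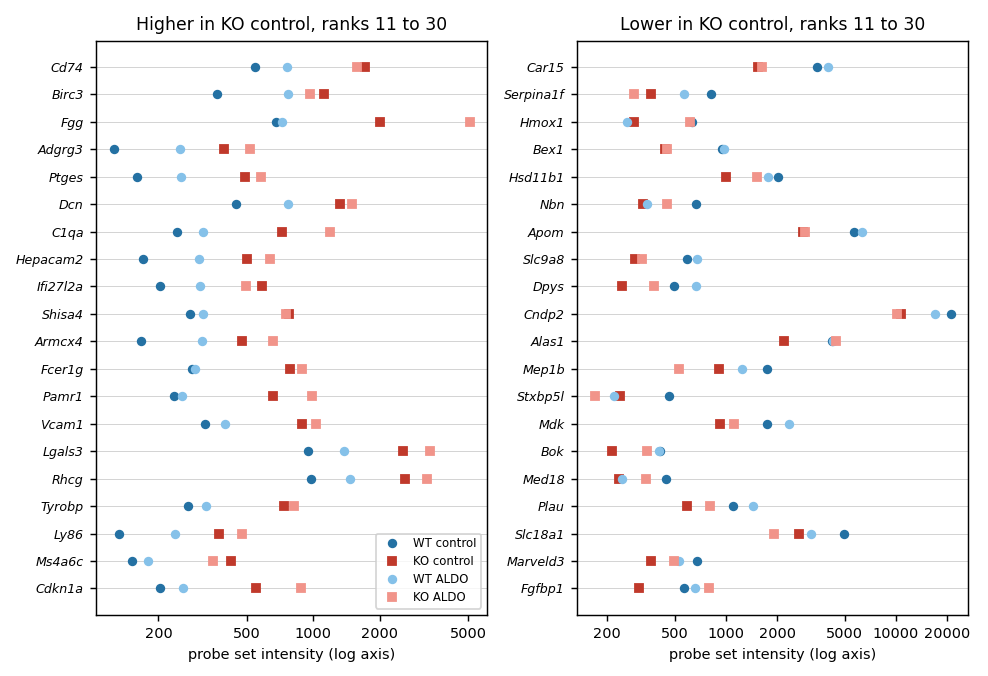
Probe set intensity (log axis) on the 4 arrays for the genes ranked 11 to 30 in KO control against WT control, higher genes on the left and lower genes on the right. Squares are KO and circles WT, dark for control and light for ALDO. The squares lie to the right of the circles for all 20 higher genes and to the left for 14 of the 20 lower genes. The ranking by the control pair sets part of this order.

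Macrophage and antigen presentation genes were higher over most of their members. Of the list of macrophage surface and phagocytic receptor genes, 18 of 21 counted members were above 0, against 49.7% of all genes. Higher by 2-fold were 8, against 0.967%, and the median was 0.74 (0.82 in the ALDO pair). Among the brightest 25% of genes the median of the list was 0.03. With the measured members too dim to be counted, 44 of 50 were above 0. Mpeg1, the pore-forming perforin-2 of phagocytes, had 338, 888, 458 and 1154 (1.35). Lyz2, the lysozyme of myeloid cells, had 1153, 2541, 951 and 2247 (1.13), and Ptprc, the pan-leukocyte protein CD45, had 346, 796, 431 and 765 (1.16). All 3 had both KO arrays above both WT arrays. Below 0 were 3 members, among them the fatty acid carrier Cd36 (-0.38) and the inhibitory Fc receptor Fcgr2b (-0.38). Both are also found on some endothelium, and the cell source of their signal was not tested. The list's summed intensity was 41161 in WT and 47356 in KO control. The defining markers Adgre1 (F4/80) and Cd68 were not among the genes counted, with 154 and 322 and 123 and 185 in WT and KO control.

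All 7 counted genes of MHC class II presentation were higher (median 0.83, 2 past 2-fold). For all 7 both KO arrays were above both WT arrays, against 25% of all genes. The class II chains H2-Eb1, H2-Aa and H2-Ab1 had 1.03, 0.83 and 0.59, the peptide loader H2-DMa 0.75, and cathepsin S, Ctss, which trims the invariant chain, had 855, 1712, 524 and 1444 (0.99). The MHC class I list, made by all nucleated cells, had 13 of 15 above 0 with a smaller median of 0.37, led by the peptide transporter Tap1 (0.75) and the class I chains H2-K1 (0.53) and H2-D1 (0.49). Its lowest members, Calr (-0.17) and Pdia3 (-0.26), are chaperones of the endoplasmic reticulum. Lysosomal genes were near the background, with 15 of 26 above 0 and a median of 0.05. Of the lymphocyte list 2 of 30 measured genes were bright enough to be counted, Ighm (0.35) and Zap70 (0.30). For the neutrophil and mast cell list it was 1 of 19 measured, S100a8 (0.26). For the dendritic cell list it was 4 of 16 measured, with a median of 0.16.

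Signals that bring leukocytes in were higher as well. Of 10 counted chemokines 8 were above 0 and 3 past 2-fold (median 0.60). With the measured members too dim to be counted, 24 of 32 were above 0 (median 0.44). Ccl28, Pf4, Ccl6 and Cxcl10 were under the filter's intensity of 247 on both WT arrays, so they were counted through the KO arrays. Ccl28, a chemokine of mucosal epithelium, had 227, 589, 232 and 512 (1.31), Pf4 of platelets and macrophages had 1.20, Ccl6 had 1.18, and the interferon-induced Cxcl10 had 238, 393, 166 and 410.1 (0.69). Cxcl12, which holds stem and immune cells in tissue, was lowest at -0.26. In the adhesion list 9 of 10 were above 0 (median 0.25), with Icam1 at 0.54 after Vcam1. Cytokines and their receptors had a smaller median of 0.22, with 16 of 19 above 0. Il34, a ligand of the macrophage growth factor receptor, had 0.61, the oncostatin M receptor Osmr 0.59 and the interleukin-17 receptor Il17ra -0.50.

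Acute phase and complement genes had a few very large members. The list of IL-6 and STAT3 signalling and acute phase genes had 16 of 18 above 0, 3 past 2-fold and a median of 0.50. Socs3, the feedback inhibitor induced by STAT3, had 215, 558, 179.7 and 1221 (1.31), and the transcription factor Cebpd had 186, 383, 232 and 503 (0.98). Both KO arrays were above both WT arrays for both genes. Socs3 and Cebpd were under the filter's intensity on both WT arrays, so they were counted through the KO arrays. The filter thus sets part of this order, and nothing is read from it. Of 13 counted complement genes 10 were above 0 (median 0.20): after C1qb and C1qa came Cfi, the protease that inactivates C3b, with 0.94, and clusterin, Clu, a complement inhibitor and chaperone, with 10116, 19287, 13782 and 24169 (0.93). Complement C2 (-0.46) and factor B, Cfb (-0.34), were lowest. Over all 28 measured complement genes, 16 were above 0 and 12 below (median 0.08). In the NF-kB and toll-like receptor list 10 of 13 were above 0 (median 0.41), led after Birc3 by the inflammasome adaptor Pycard (0.74) and the inhibitors Nfkbie (0.66) and Nfkbiz (0.63), while the subunit Rela had -0.06.

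Interferon-stimulated genes differed by less per gene but in most members. Of 39 counted, 33 were above 0 and 3 were past 2-fold, with a median of 0.37 (0.34 in the ALDO pair). For 28 both KO arrays were above both WT arrays, against 25% of all genes. Irf7, the transcription factor that amplifies the response, had 235, 499.8, 253 and 537 (1.04). Rtp4 had 423, 989.5, 612 and 811 (1.20) and Oasl2, a relative of the double-stranded RNA sensors, 0.79. Both KO arrays were above both WT arrays for Irf7 and for Rtp4. The lowest member was the membrane antiviral protein Ifitm1 at -0.71.

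The promoters of 3 further members with differences near 0.72 show an element known from promoters of interferon-stimulated genes. The genes were chosen after their values were seen, because their RefSeq windows hold it. Each run is the 250 bases before the start, 5′ to 3′ on the gene's strand in GRCm38.p6, and capitals mark matches, on either strand, to GAAA, then 2 bases of any kind, then GAAA. The 2 matches of Oas1a overlap, as do those of Gbp3.
Oas1a, chr5:120907526-120907775, minus strand: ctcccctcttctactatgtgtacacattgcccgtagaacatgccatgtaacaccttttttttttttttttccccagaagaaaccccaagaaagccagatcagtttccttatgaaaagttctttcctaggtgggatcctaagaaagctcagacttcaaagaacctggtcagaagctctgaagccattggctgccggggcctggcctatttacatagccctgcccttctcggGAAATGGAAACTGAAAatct
Gbp3, chr3:142559794-142560043, plus strand: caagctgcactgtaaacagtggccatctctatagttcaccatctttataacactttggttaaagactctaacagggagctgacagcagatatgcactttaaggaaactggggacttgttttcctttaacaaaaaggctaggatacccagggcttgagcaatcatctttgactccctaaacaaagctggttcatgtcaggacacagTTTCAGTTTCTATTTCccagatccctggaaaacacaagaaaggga
Ifit3, chr19:34583279-34583528, plus strand: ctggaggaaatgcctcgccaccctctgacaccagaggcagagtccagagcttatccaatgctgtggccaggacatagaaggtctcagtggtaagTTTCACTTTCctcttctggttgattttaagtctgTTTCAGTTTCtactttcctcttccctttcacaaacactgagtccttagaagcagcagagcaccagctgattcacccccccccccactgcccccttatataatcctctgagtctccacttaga
Oas1a, which makes the activator of RNase L, had 310.1, 523, 397 and 605 (0.72). Gbp3, a guanylate-binding protein, had 211, 373, 209 and 516 (0.78), and Ifit3, which binds viral RNA complexes, 443, 708, 642 and 989 (0.66). In each the lower KO array was above the higher WT array. Gbp3 was under the filter's intensity on both WT arrays, so it was counted through the KO arrays, which sets part of its order. A match in the 300-base window that also holds 50 bases after the start was found for 17 of the 32 list members with a window (53.1%), against 3.55% of counted genes with a window and 3.44% of all 32851 windows. Members with a match had a median difference of 0.36 and those without 0.37, nearly the same.

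Genes known to be switched on in injured tubules were higher over most of the list. Of 28 counted, 25 were above 0, against 49.7% of all genes, and 6 were higher by 2-fold, against 0.967%. The median was 0.40, against 0.81 in the ALDO pair. Among claudins, the tight junction proteins, 6 of 11 counted were above 0, and 9 of all 18 measured (median 0.03). Cldn7 had 507, 994, 835 and 1448 (0.95), Cldn3 0.84 and Cldn8 0.57, all known from the distal nephron and collecting duct, while the proximal tubule claudins Cldn2 (-0.13) and Cldn12 (-0.48) and the thick limb claudins Cldn10 (-0.29) and Cldn16 (-0.13) were below 0. Krt7 and Krt18, keratins of simple epithelium, had 1101, 2222, 1214 and 2456 (1.0) and 701, 1194, 860.3 and 1769 (0.76). Of 5 counted keratins 4 were above 0, with a median of 0.45. The injury list shares 4 genes with the keratin list and 6 with the parietal epithelial list, so these lists are not independent. Itgb6, an integrin subunit that activates TGF-beta and is induced in injured epithelium, was the lowest of the injury list at -0.76.

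Cell cycle genes were higher by small amounts, with 20 of 21 counted above 0, 1 past 2-fold and a median of 0.32. Rrm2, which makes deoxynucleotides for replication, had 235, 501, 212 and 501 (1.04), and Cdc20, which triggers anaphase, 279, 503, 203 and 379 (0.81). Foxm1, a transcription factor of dividing cells, had 0.57. In the list of p53 targets and growth arrest genes 16 of 24 were above 0 (median 0.14), with the death receptor Fas at 1.13 and Gadd45g at -0.77. Immediate early genes had a median of 0.19 with 21 of 27 above 0, from the small GTPase Rhob at 0.81 to Egr1 at -0.50. Of 29 hypoxia genes 18 were above 0 (median 0.09), with the growth inhibitor Ddit4 at 0.65 and the glycolytic switch kinase Pdk1 at 0.60.

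**Figure D4:**
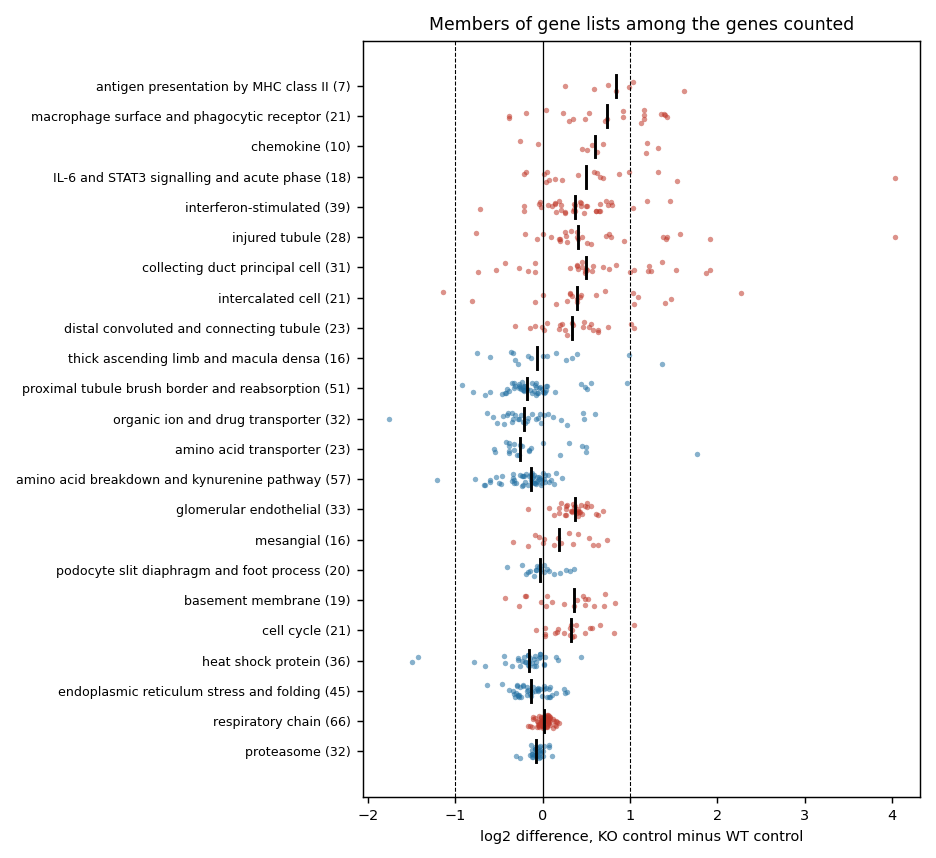
Log2 difference, KO control minus WT control (x axis), of each counted member of 23 gene lists, with the number of members in brackets. Points are genes (red where the list median is above 0, blue where it is below), black bars are medians, and dashed lines mark 2-fold, and most points of the immune and collecting duct lists lie to the right of 0.

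Endothelial genes were higher in nearly every counted member. The RNA also held tubular RNA, and which endothelium of the kidney the signal came from was not tested. Of 33 counted endothelial genes 32 were above 0 and none reached 2-fold, with a median of 0.37 (0.48 in the ALDO pair). For 22 both KO arrays were above both WT arrays, against 25% of all genes. Cdh5, the endothelial cadherin, had 603, 987, 1059.6 and 1465 (0.70), the VEGF receptor Flt1 1080.3, 1678, 1478 and 1754 (0.63), and the transcription factor Erg 574, 884, 574 and 774 (0.61). Flt1 and Erg had both KO arrays above both WT arrays, while for Cdh5 the WT ALDO array was above KO control. Thrombomodulin, Thbd, was near 0 at 0.07, and Sost, a secreted Wnt inhibitor, was the one below it at -0.16. The list's summed intensity was 47179.5 in WT and 60467 in KO control.

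Podocyte lists had medians near 0 under control treatment. Of the slit diaphragm and foot process list 9 of 20 were above 0 (median -0.03), and of the podocyte transcription and secreted factors 9 of 19 (median -0.00), where the prostaglandin D synthase Ptgds (2.12) was the 1 member past 2-fold. In the ALDO pair 19 of 20 (median 0.20) and 15 of 19 (0.14) were above 0. Within them the cytoskeletal regulator Arhgap24 (-0.41), the transcription factor Tcf21 (-0.56) and Clic3 (-0.51) were lowest, while Col4a4, a chain of the glomerular basement membrane (0.36), and Npnt, the matrix ligand nephronectin (0.49), were among the highest. Mesangial genes had a median of 0.19 with 12 of 16 above 0, from Art3 (0.74) and the adhesion molecule Mcam (0.64) to the angiotensin receptor Agtr1a (-0.34). Smooth muscle and juxtaglomerular genes had 11 of 12 above 0 and a median of 0.37, with smooth muscle myosin, Myh11, at 178, 296, 552 and 510.1 (0.68, against -0.11 in the ALDO pair). Of 10 parietal epithelial genes 9 were above 0 (median 0.31), led by Cldn3 and Krt18, which other epithelia of the kidney also make. Of genes of tissue that a preparation could carry along, 4 of 8 measured adipocyte genes (median 0.13), 2 of 5 red cell genes (-0.06) and 3 of 12 genes of urothelium (0.10) were bright enough to be counted. Among them the fatty acid binding protein Fabp4 of adipocytes and endothelium (1.01) and the keratin Krt7 (1.0) were past 2-fold. The 3 counted Y-linked genes of these males had a median of -0.01.

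Matrix genes were higher more often than lower. Basement membrane genes had 14 of 19 above 0 and a median of 0.36. The linker protein nidogen-1, Nid1, had 1219, 2179, 1734 and 2877 (0.83), and the collagen IV chains Col4a1 and Col4a2, which share a promoter region, had 3544, 5838, 3776 and 7396 (0.72) and 2148, 3501, 2604 and 5095 (0.70). In all 3 both KO arrays were above both WT arrays, while Lama3 (-0.43) and Fras1 (-0.27) were lowest. Of 22 fibrillar collagen and collagen-processing genes 19 were above 0 (median 0.30), with collagen III, Col3a1, at 519.7, 1172, 857 and 1999.7 (1.15) and collagen V, Col5a1, at 0.56. Among matrix glycoproteins 15 of 21 were above 0 (median 0.44), with Sparcl1 at 1.0, the injury-induced tenascin C, Tnc, at 193, 350.4, 155 and 665 (0.81), and Fbln5, an elastic fibre protein, at -0.46. Of 10 fibroblast genes 7 were above 0 (median 0.32), where the fibroblast marker Pdgfra was lowest at -0.51.

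Proteases, coagulation factors and growth factor pathways were more mixed. Of 19 matrix proteases and inhibitors 15 were above 0 (median 0.25), with the gelatinase Mmp2 at 341, 761, 466 and 724 (1.12) and Adamts1 at 0.76. In the serpin and coagulation list 13 of 20 were above 0 (median 0.25, and -0.19 with the next-brightest probe sets), with the protease inhibitors Serpinb1a (1.02) and Serpinb9 (0.84) next to Fgg, and factor V, F5 (-0.66), and antithrombin, Serpinc1 (-0.45), below 0. TGF-beta and BMP genes had a median of 0.07 (18 of 27 above 0), but the TGF-beta-induced Tgfbi had 328, 675, 488 and 1017 (1.0) and the BMP target genes Id1 and Id3 had 0.81 and 0.69. Wnt signalling (median -0.04, 9 of 20 above 0) and growth factors and their receptors (median 0.00, 24 of 46) were near the background, with Angptl7 (-1.44), Mdk and Pdgfc (-0.63) the lowest of the latter. Notch, semaphorin and ephrin genes had 24 of 35 above 0 and a median of 0.14, with Sema7a at 0.68, the ligand Jag1 at 0.60 and its receptor Notch1 at 0.59.

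Genes of the distal nephron and collecting duct were higher over most of their members. Of 31 counted principal cell genes 24 were above 0, against 49.7% of all genes, and 9 were higher by 2-fold, against 0.967%. The median was 0.50 (0.35 in the ALDO pair). For 22 both KO arrays were above both WT arrays, against 25% of all genes. Wfdc2, a secreted protease inhibitor-like protein, had 3325, 8606, 4239 and 10127 (1.37). The epithelial sodium channel, the aldosterone-regulated route of sodium into principal cells, was higher in all 3 subunits, with 0.51 for Scnn1a, 339.9, 803, 520.0 and 715 (1.20) for Scnn1b and 871, 2040.2, 1235 and 2599 (1.21) for Scnn1g. Both KO arrays were above both WT arrays in each subunit. Aqp4 and Aqp3, both water channels on this list, differed in sign: Aqp4 had 189, 467, 339 and 285 (1.23, against -0.24 in the ALDO pair) and Aqp3 3179, 2353, 4315 and 2251 (-0.43). Fxyd4, a regulator of the sodium pump, and Apela, a ligand of the apelin receptor, were lowest at -0.53 and -0.74. The principal cell list shares 4 genes with the injured tubule list. It shares 3 each with the claudin, keratin and parietal epithelial lists, so these lists are not independent.

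Intercalated cell genes, which handle acid and base, had 17 of 21 above 0 and a median of 0.40. Past 2-fold were 6 up and 1 down, against 0.967% and 0.176% of all genes. After Spink8, Hepacam2 and Rhcg came the proton pump subunit Atp6v0d2, with 296, 646, 547 and 739 (1.09), and the ammonia channel Rhbg (1.04). Slc26a7 (-0.81) and Car15 were lowest, and the anion exchanger Slc4a1 was at -0.00. In the distal convoluted and connecting tubule 19 of 23 were above 0 (median 0.34), with the sodium-calcium exchanger Slc8a1 at 2954, 6136, 4386 and 6206 (1.05), the magnesium channel Trpm6 at 564, 1148, 846 and 1856 (1.01) and the potassium channel Kcnj10 at 0.75. Egf, the growth factor precursor of this segment, was lowest at -0.31. The thick ascending limb had 8 of 16 above 0 (median -0.06). Its members ran both ways, from Wfdc2 and Sostdc1 (0.99) to the transcription factor Irx1 (-0.75) and the sodium-potassium-chloride carrier Slc12a1, with 13536, 8941, 11951 and 7129.9 (-0.60, but 0.40 in the next-brightest probe set).

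Proximal tubule genes were lower by small amounts over most of their members. Of 51 counted, 39 were below 0, against 50.3% of all genes. For 29 both KO arrays were below both WT arrays, against 23.7% of all genes. None was lower by 2-fold and the median was -0.18 (-0.24 in the ALDO pair). Acsm3, a mitochondrial acyl-CoA synthetase, had 5139.5, 2953, 3687 and 1607 (-0.80), and Slc34a3, a brush border phosphate carrier, 4239, 2686, 3639 and 2364 (-0.66). Both had each KO array below each WT array. Slc26a6, an apical anion exchanger, went the other way with 323, 644, 312 and 514 (0.96), as did the citrate carrier Slc13a2 (0.56) and the vitamin D activating enzyme Cyp27b1 (0.50). The summed intensity of the list was 682128 in WT and 625712 in KO control, while that of the principal cell list was 55779.7 and 76803, and the part of the mix of tubule segments in the RNA was not tested.

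Further transporters were also lower more often than higher. Of 32 organic ion and drug transporters 24 were below 0, with a median of -0.22, the lowest after Slc22a7 being Slco1a1 (-0.64) and Slc22a19 (-0.57) and the highest the nucleoside carrier Slc29a1 (0.60). Of 23 amino acid transporters 16 were below 0, with the lowest median of the 64 lists with at least 5 counted members, -0.26. Slc7a13, an aspartate and cystine carrier, had 10467, 7138, 9159 and 4181 (-0.55) and Slc6a6, which takes up taurine, 9687, 6661, 10271 and 9528 (-0.54). Among those above 0, besides Slc38a3 (1.76), were the glutamine carrier Slc1a5 at 0.49 and the cationic amino acid carrier Slc7a1 at 0.49. Aquaporins and carbonic anhydrases had 11 of 16 below 0 and a median of -0.20, with the glycerol channel Aqp7 at -0.60.

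Enzymes of amino acid breakdown, which the proximal tubule shares with the liver, were lower in 47 of 57 counted members (median -0.13, -0.28 in the ALDO pair). For 34 both KO arrays were below both WT arrays, against 23.7% of all genes. Dao, which oxidises D-amino acids, had 6652, 2876, 4404 and 2539 (-1.21). Cbs, which makes cystathionine from homocysteine, had 3073, 1784, 2217 and 1226 (-0.78), and Aadat, a transaminase that makes kynurenic acid, 2845, 1797, 2787 and 1345 (-0.66). These 3 had each KO array below each WT array, whereas Bckdhb, of branched-chain amino acid breakdown, was highest at 0.22. Aldehyde and alcohol dehydrogenases and other oxidoreductases had 31 of 43 below 0 (median -0.13), from the retinol dehydrogenase Rdh16f2 at 2269, 5379.9, 7747 and 8851 (1.24, but 0.19 in the ALDO pair) to the flavin monooxygenase Fmo5 at 1543, 907, 1290.0 and 700.5 (-0.76).

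Enzymes that oxidise and conjugate foreign compounds and steroids ran both ways with large single differences. Of 26 cytochrome P450 genes 14 were above 0 (median 0.09), 3 past 2-fold up and 1 down. Cyp4a14, a fatty acid hydroxylase induced by PPAR-alpha, had 1740.0, 4497, 14048 and 11113 (1.36), with the opposite sign in the ALDO pair. Cyp26b1, which degrades retinoic acid, had 460.4, 1053, 888 and 1163 (1.17), Cyp2s1 1.12, the testosterone-dependent Cyp4a12a 9289, 5171, 6998 and 4179 (-0.84) and Cyp2d9 2988, 1659, 2663 and 1037 (-0.84). Among conjugating enzymes and carboxylesterases 23 of 40 counted were below 0 (median -0.10), but 26 of all 56 measured (median 0.02). Sult1a1, a phenol sulfotransferase, had 477, 1108, 840.2 and 815 (1.19) and Ugt2a3, a glucuronosyltransferase, 0.98, with -0.04 and -0.56 in the ALDO pair, while the carboxylesterase Ces1e had -0.75. Members of these families are close in sequence, so signal may be shared between probe sets of relatives.

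Lists of central energy metabolism had medians near 0, though in some of them more members were lower than higher on both KO arrays. Fatty acid oxidation and PPAR-alpha target genes had 36 of 52 below 0 and a median of -0.06, against -0.39 in the ALDO pair. For 28 both KO arrays were below both WT arrays, against 23.7% of all genes. Fabp1, the liver-type fatty acid binding protein, had 266, 186, 1461 and 257 (-0.48), so the WT ALDO array was the high one, and the peroxisomal enzyme Ehhadh had a control difference of -0.53. Cholesterol and fatty acid synthesis (25 of 47 above 0, median 0.01), glycolysis and gluconeogenesis (26 of 42, 0.02), the citric acid cycle (14 of 28, -0.01) and the respiratory chain (41 of 66, 0.02) had medians at or close to 0. In the citric acid cycle both KO arrays were below both WT arrays for 11 genes and above them for 2, against 23.7% and 25% of all genes. The respiratory chain had the narrowest range of these, from -0.17 to 0.19. In the ALDO pair 50 of its 66 genes were below 0 (median -0.06). Both KO arrays were below both WT arrays for 16 of the 66, near the 23.7% of all genes. Both KO arrays were above both WT arrays for 5, against 25%. Within glycolysis, isoforms not typical of the proximal tubule were highest, with 372, 778, 474 and 612 (1.03) for the glycogen phosphorylase Pygb, 468, 943, 614 and 1060.4 (0.99) for the phosphofructokinase Pfkp and 0.70 for the hexokinase Hk1, and the fructose carrier Slc2a5 (-0.67) and the glucose-releasing enzyme G6pc (-0.40) lowest. Ribosomal protein genes (15 of 38 above 0, median -0.03) and proteasome genes (6 of 32, -0.07) were also near 0 in size. Yet 26 of the 32 proteasome genes were below 0, and for 18 both KO arrays were below both WT arrays, against 23.7% of all genes.

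Heat shock proteins, which refold damaged proteins, were lower in 30 of 36 counted members (median -0.16), 2 of them by 2-fold, but the ALDO pair had a median of 0.06. The 2 were Hspa1a and Hspa1b, near-identical copies of the inducible HSP70 gene whose probe sets are best read together. Their promoters are shown because they hold the element to which heat shock factor is known to bind. Capitals mark the match to GAANNTTC, which starts 104 bases before the RefSeq start in both, in the 250 bases before it, 5′ to 3′ on the gene's strand in GRCm38.p6.
Hspa1a, chr17:34972157-34972406, minus strand: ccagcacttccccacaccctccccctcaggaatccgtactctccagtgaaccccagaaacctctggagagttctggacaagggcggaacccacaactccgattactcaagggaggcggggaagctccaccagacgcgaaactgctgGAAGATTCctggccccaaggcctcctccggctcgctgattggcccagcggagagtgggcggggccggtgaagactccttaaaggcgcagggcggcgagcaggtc
Hspa1b, chr17:34959239-34959488, minus strand: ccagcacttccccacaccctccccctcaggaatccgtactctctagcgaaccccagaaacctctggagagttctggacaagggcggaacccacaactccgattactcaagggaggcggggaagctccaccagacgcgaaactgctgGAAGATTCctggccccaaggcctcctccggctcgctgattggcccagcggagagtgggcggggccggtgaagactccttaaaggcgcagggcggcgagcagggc
These stretches differed at 3 of 250 bases. Hspa1a had 1784, 656, 671 and 1062 (-1.42, and 0.65 in the ALDO pair), and Hspa1b 8546, 3014, 3291 and 4694 (-1.50 and 0.51). In both it was the WT control array that was high, at more than 1.5-fold the next one, and the WT ALDO array was near KO control. Hsph1, the HSP110 nucleotide exchange factor, had 4239.6, 2450.4, 3304 and 2745 (-0.79), and Hspbp1, which releases nucleotide from HSP70, 862, 541, 565 and 602 (-0.66), while Bag2, an HSP70 co-chaperone, was highest at 0.43. In 300-base windows the element was found for 12 of 29 list members with a window (41.4%), against 6.86% of counted genes with a window and 7.86% of all windows. The medians were -0.18 with a match and -0.10 without.

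Other chaperones were lower by less. DnaJ co-chaperones and chaperonin subunits had 22 of 36 below 0 (median -0.06), with the HSP70 partner Dnajb1 at 2194, 1647, 1654 and 1807 (-0.41) and Dnaja1 at -0.37. Genes of endoplasmic reticulum stress and folding had 32 of 45 below 0 and a median of -0.13, against 0.07 in the ALDO pair, the lowest being the signal peptidase subunit Sec11c (-0.64) and Sdf2l1 (-0.46). NRF2 and antioxidant genes were near the background, with 25 of 44 below 0 and a median of -0.02. Hmox1, which degrades haem, and the glutathione transferase Gsta3 (1897, 1183, 2201 and 1431, -0.67) were lowest, and the metallothioneins Mt1 (5809.6, 9681, 8377 and 11425, 0.74) and Mt2 (3532, 5401, 4551 and 6194, 0.61) highest. The antioxidant element TGACNNNGC stood in the windows of 11 of 39 members (28.2%), against 17.2% of counted genes and 12.4% of all windows. Iron and metal genes had 14 of 25 above 0 (median 0.12), with ceruloplasmin, Cp, at 973, 1795, 1310.4 and 2894 (0.87) and the iron regulator Hfe at -0.48. Circadian clock genes had 6 of 16 above 0 (median -0.07), with Per3 at -0.38, Dbp at -0.36 and Wee1 at -0.58.

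The natriuretic peptide and cyclic GMP pathway, to which GC-A belongs, was itself near the background, with 11 of 18 counted genes above 0, none past 2-fold and a median of 0.05. Nppa, Nppb and Nppc, which encode the peptides, were too dim to be counted, as was Npr1. Npr2, the receptor of C-type natriuretic peptide, had 774, 589, 736 and 668 (-0.38) and the clearance receptor Npr3 1051, 994, 1183 and 1088 (-0.08). Rgs2, which is activated by cyclic GMP-dependent kinase and dampens vasoconstrictor signals, was highest at 747, 1082, 828 and 1196 (0.52), followed by the cyclic GMP phosphodiesterase Pde5a at 315, 453, 304 and 437 (0.50). Both KO arrays were above both WT arrays in 3 of the 18 genes and below them in 3, against 25% and 23.7% of all genes.

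Of the hormone systems that act with or against natriuretic peptides, renin-angiotensin and corticosteroid receptor genes had 9 of 14 above 0 and a median of 0.04. Agt, the precursor of angiotensin, had 566, 965, 673 and 809.6 (0.75), and Hsd11b2, which shields the mineralocorticoid receptor from glucocorticoid, 2539.7, 3800.4, 3775 and 3932 (0.58), opposite to Hsd11b1 (-1.01), while the angiotensin receptor Agtr1a had -0.34. Aldosterone-induced and sodium channel regulating genes had 27 of 37 above 0, 5 past 2-fold and a median of 0.33, in mice that received no aldosterone. Beside the channel subunits these were Kcne1, Cdkn1a and the chloride-bicarbonate exchanger pendrin, Slc26a4, with 856, 1772, 1539.8 and 2115 (1.04), and the kinases Sgk2 (-0.32) and Sgk3 (-0.23) and the channel-activating protease Prss8 (-0.32) were below 0. The list shares 7 genes with the principal cell list and 8 with that of the distal convoluted and connecting tubule, so they are not independent.

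Vasoactive peptides had 9 of 14 counted above 0 and a median of 0.13, but 13 of all 26 measured (median -0.004). Adrenomedullin, Adm, a vasodilator peptide, had 352, 825, 873 and 1944 (1.19), the apelin receptor Aplnr 534, 1037, 883 and 1050.1 (0.94) and endothelin-1, Edn1, 205, 318, 283 and 422 (0.59), whereas its converting enzyme Ece1 had -0.41. For Adm the WT ALDO array was above KO control, so the genotypes overlapped. Of 34 measured prostaglandin and leukotriene genes 15 were above 0 and 19 below (median -0.06). Of the 20 counted, 11 were above 0 (median 0.15). Higher by 2-fold were 5 of the 20, against 0.967% of all genes. Besides Ptgds, Ptges and Cyp4a14 these were the leukotriene C4 synthase Ltc4s, with 276, 949, 391 and 1406 (1.72), and the helper of 5-lipoxygenase Alox5ap, with 226, 477, 250.3 and 593 (1.03), both known from myeloid cells. Pla2g7 (-0.48) and the epoxide hydrolase Ephx2 (-0.47) were lowest.

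A gene's other probe sets did not always give the same value. Of the genes named above, besides those whose second value is already given, the next-brightest probe set had the opposite sign for Il17ra (0.25), Foxm1 (-0.19), Tcf21 (0.10), Arhgap24 (0.57), Pdgfra (0.06), Slc26a7 (0.37), Aqp7 (0.23), Sec11c (0.36) and Wee1 (0.15). The same held for Sost (1.21), Pdia3 (0.32), Lama3 (0.04), Fras1 (0.12), Slc4a1 (0.13), Jag1 (-0.01), Hk1 (-0.01) and Slc1a5 (-0.03), so the direction of these 17 genes depends on the probe set. It had the same sign at under 50% of the size for the glutamine carrier Slc38a3 (0.13), the chemokine Ccl6 (0.36), the proton pump subunit Atp6v0d2 (0.41), the replication enzyme subunit Rrm2 (0.36) and the channel Trpm6 (0.09), each past 2-fold in the brightest probe set. Smaller in the same way were Nid1 (0.30), Pycard (0.16), Art3 (0.13), Cdh5 (0.27), Myh11 (0.27), Flt1 (0.20), Slc7a13 (-0.19), Slc6a6 (-0.25), Pde5a (0.06), Fabp1 (-0.22), Hfe (-0.18), Ece1 (-0.18) and Fcgr2b (-0.07).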

How the data were processed

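Total RNA from glomeruli was hybridised to 1 array for each of 4 groups, named by the sample titles. The deposited table holds an intensity per probe set and array, not log-transformed, and Affymetrix Expression Console is named by the submitters' processing notes. The sources used here do not give its algorithm, version or detection calls. The values themselves show that the authors' deposited intensities had been scaled to 1 trimmed mean (2% left out at either end), which sets the average signal of the arrays equal and would hide a change common to all genes.

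Of 45101 probe sets 64 were controls, 34945 had 1 gene symbol, 932 several and 9160 none listed in the array's annotation table, and probe sets with 1 symbol were used. Of 18193 genes 18031 had an Entrez identifier in the RefSeq gene table (GRCm38.p6). The brightest probe set by mean over the 4 arrays stood for a gene, and the filter kept genes from a mean log2(intensity + 16) of 8.04, an intensity of 247. The pseudocount understates differences of dim genes. With 1 array per group no p-value or standard error could be had, and the number of arrays limits the precision.

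The 71 gene lists (2320 genes, 2095 measured, 1480 counted) are described by the members above 0, those past 2-fold and the median, and some share genes. The members and lists were chosen with earlier results of these data known. Named genes were those ranked 11 to 30 in either direction, without clones, gene models or genes whose further bright probe sets had the other sign (Bcl10 and Il17re among those past 2-fold), up to 4 highest and 4 lowest members of each list, and the natriuretic peptide and receptor genes. Named outside this rule, after their values were seen, were the markers Nphs1, Wt1, Umod, Adgre1 and Cd68, the genes whose promoters are shown, Ptprc, Lyz2, Rhbg, Scnn1a, Slc26a4 and Alox5ap, and those in the closing observations. Motifs were searched as letters on both strands of RefSeq promoter windows of 300 bases (GRCm38.p6). Python 3.11.15, numpy 2.4.6, pandas 2.3.3 and matplotlib 3.10.9 were used, and the steps were tested on simulated data. Alternatives were pseudocounts of 1 and 64, quantile normalization, centring on the median, no filter, the brightest 25% of genes, the mean of all probe sets and the next-brightest probe set.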

Additional observations from a re-analysis of the deposited data

Results flagged for a closer look

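Hmox1, the haem-degrading enzyme induced by oxidative stress, differed between the genotypes in opposite directions under the 2 treatments. KO was lower than WT under control treatment, by a log2 difference of -1.10 (intensities 632 and 286), and higher under ALDO, by 1.18 (262 and 612). The WT control and KO ALDO arrays were thus the high ones. With 1 array per group the difference between the treatments was not tested.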

How the results depend on the processing

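The 88 higher and 16 lower genes at 2-fold depended on which genes and probe sets were read. Without the filter 808 were higher and 448 lower, among the brightest 25% of genes 26 and 7, and in the next-brightest probe sets 21 and 5. Lower genes numbered 25 after centring on the median and 32 when all probe sets were averaged. Centring moved the median of all genes to -0.11, so list medians between 0 and 0.11 fell below 0 under it. Of the 104 genes, 26 were under 2-fold with a pseudocount of 64, 26 after centring, 14 after quantile normalization and 24 when probe sets were averaged. The 26 under 2-fold after centring were all among the higher genes. List medians at 0.2 or more numbered 26, and 14 with the next-brightest probe set. Medians at -0.2 or less numbered 2, 9 after centring and 1 with either the mean of all or the next-brightest probe set. Medians of at least 0.2 in size that turned sign were those of claudins, at -0.13 among the brightest 25% and -0.079 with the next-brightest probe set, and of serpin and coagulation genes, at -0.19 with the latter. The macrophage median was 0.03 among the brightest 25%. The next-brightest probe set also reversed Il17re (-0.083) and Bcl10 (0.11). The cause of these shifts was not tested. No list median moved by over 0.2 with other pseudocounts or either normalization. No paired analysis was possible because each group has 1 array and the labels give no replicate numbers. Without detection calls the signal of dim genes over background is not known.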

Other observations

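The filter on mean intensity left out 254 genes that reached an intensity of 247 on a control array, of which 19 were higher and 7 lower by 2-fold, and those named here were chosen after their values were seen. Havcr1, the kidney injury molecule KIM-1 of damaged proximal tubule, had 39.3, 308, 70.1 and 1328 (2.55, with 0.38 in the next-brightest probe set). Lum, the collagen-binding proteoglycan lumican, had 22.1, 259, 36.2 and 158 (2.85), and Cd44, a hyaluronan receptor of activated parietal and tubular cells, 108, 343, 123 and 693 (1.54). In all 3 both KO arrays were above both WT arrays. The third C1q chain, C1qc, had 87.5, 335, 145 and 639 (1.76), the fungal glucan receptor Clec7a of myeloid cells 139.7, 368, 142 and 339 (1.30), and Mki67, the Ki-67 protein of dividing cells, 111, 291, 78.2 and 334 (1.27). The same was true of these 3. Among the lower ones were the thyroid hormone and drug carrier Slco4c1, with 294, 74.9, 171 and 101 (-1.77, next-brightest -0.08), and the myosin motor Myo5a, with 359, 128, 399 and 167 (-1.38, next-brightest 0.47).

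The genes that neighbour Npr1 on its chromosome were read as well. Of the 20 genes on either side with a probe set, 22 of 40 were counted, 15 were above 0, none was past 2-fold, and the median was 0.06, from -0.39 to 0.86. The highest belong to the S100 family of calcium-binding proteins, a group picked after its values were seen. Its 6 counted genes near Npr1 were all above 0, with a median of 0.50 (0.88 in the ALDO pair). S100a4, a marker of fibroblasts and leukocytes, had 315, 584, 454 and 963 (0.86), S100a1 had 0.52 (next-brightest 0.16), S100a6 0.51, S100a13 0.48, S100a8 0.26 and S100a16 0.25. For all 6 both KO arrays were above both WT arrays, against 25% of all genes. The S100 genes there that were too dim to be counted ran both ways. S100a14 had 2.47 and S100a9 0.53, while S100a3 had -0.49, S100a5 -0.31 and S100a7l2 -0.52.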
